A study of Zea mays with 12 samples.

Results

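The gamma and beta zeins are the cysteine-rich storage proteins of the maize kernel. The 4 genes described here were chosen by identifier: gz50 (GRMZM2G138689), gz27 (GRMZM2G138727) and gz16 (GRMZM2G060429), which encode the 50-kDa, 27-kDa and 16-kDa gamma-zeins, and bz15 (GRMZM2G086294), which encodes the 15-kDa beta-zein. They are 4 of 39448 gene models in the deposited table, and the rule that selects them names identifiers and uses no measured value. RNA was sequenced from endosperm, the storage tissue of the kernel, of field-grown maize collected 16 days after pollination. Plants were of 4 genotypes, namely wild type (written WT), opaque2 (o2, mutant for the O2 factor), PbfRNAi (an RNA interference line against PBF, the prolamin-box binding factor) and PbfRNAi;o2, which carries both lesions. Each genotype had 3 biological replicates, 12 libraries in all. The sources used here do not give the o2 allele, the promoter of the interference construct or the inbred background of each line. An effect of a lesion and a difference of background between lines therefore cannot be told apart. The comparisons ask which of the cysteine-rich zeins depend on PBF, on O2, on both or on neither.

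Zeins are made on the rough endoplasmic reticulum of starchy endosperm cells and packed into protein bodies. Gamma-zeins and the beta-zein are rich in cysteine, form disulfide bonds and make up the outer shell of the protein body, while the alpha-zeins and delta-zeins fill its core. PBF is a Dof factor that binds the prolamin box found upstream of many zein genes. O2 is a bZIP factor that is best known as an activator of alpha-zein genes of the 22-kDa class and of bz15, and the 2 proteins are known to interact.

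Levels are in FPKM, fragments per kilobase of transcript scaled to the mapped fragments of the library, and are therefore comparable between genes per length. The o2 transcript stood at FPKM 230, 195 and 189 in the WT libraries, 97.3, 128 and 133 in PbfRNAi, but at 0.677, 0.165 and 0.560 in o2 and 0.805, 0.312 and 0.270 in PbfRNAi;o2. The WT libraries held the pbf1 transcript (GRMZM2G146283) at 110, 102 and 97.6, the o2 libraries at 242, 307 and 331, the PbfRNAi libraries at 56.7, 44.1 and 39.1 and the PbfRNAi;o2 libraries at 64.8, 58.7 and 54.9. The level of pbf1 was thus 0.451 of that in WT in PbfRNAi and 0.203 of that in o2 in PbfRNAi;o2, so the measured level was lowered but not lost. Another model that bears the pbf1 name, GRMZM2G146267, was at 12.6, 12.3 and 11.5 in WT against 10.5, 13.9 and 11.7 in PbfRNAi and had no call there (log2 −0.02 ± 0.12, limma adjusted p = 0.938). FPKM sums ran from 430405 to 519817 and the read depth is unknown. Replicates 2 and 3 of a genotype correlated across 17058 genes at r = 0.989 to 0.995 and replicate 1 with either of them at 0.955 to 0.970. Libraries of different genotypes correlated at 0.863 to 0.957, a range that holds the lowest value of replicate 1. Replicate 1 thus stood apart in every genotype, and results are also given without the 4 replicate 1 libraries. Replicate 1 of PbfRNAi;o2 was also unlike the others of its genotype at some models, named after their values were seen. For ohp1 (GRMZM2G016150) it held 0 against 10.9 and 10.6, with at most 0.0309 in WT and o2. For a PDIL5-1 model (GRMZM2G443655) it held 61.5 against 0.406 and 0.148, with 50.2 to 55.1 in o2. Its pbf1 level was near theirs. The cause was not tested, and results on PbfRNAi;o2 over all libraries include this library. Genes are not independent replicates.

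Fold changes were tested with limma on log2(FPKM + 1) over 17058 genes, and every adjusted p of a gene below is Benjamini-Hochberg adjusted over all of them. Median-of-ratios scaling removed a shift of the typical gene, which against WT was 0.44 (log2) in o2, 0.18 in PbfRNAi and 0.49 in PbfRNAi;o2. The shift of PbfRNAi;o2 was 0.06 against o2 and 0.31 against PbfRNAi, that of o2 against PbfRNAi was 0.26, and that of the interaction −0.13. These shifts are medians over all tested genes, and the added 1 makes them smaller for low genes than for abundant ones. For gz50 in o2 against WT the change went from −0.14 to −0.66. Values after this scaling are called scaled. In endosperm as a bulk tissue, fewer cells that express a gene and less RNA per cell cannot be told apart. Among markers of other kernel tissues, the 7 models of the basal transfer layer summed to FPKM 143 to 202 in WT, 218 to 365 in o2, 32.6 to 118 in PbfRNAi and 63.1 to 197 in PbfRNAi;o2. The 4 embryo models summed to 344 to 383, 356 to 405, 325 to 628 and 387 to 519 in the same order, of which ole1 gave 305 to 551 per library, with lec1 at 0 throughout. The 4 aleurone models summed to 105 to 177 over all libraries with c1 at 0 throughout, the 3 embryo surrounding region models to 0.302 to 4.44 with esr1 at 0, and the 1 green tissue model to at most 0.394. The 5 starchy endosperm models (sh2, bt2, bt1 and 2 named ae1) summed to 2890 to 4035 in WT, 5404 to 10320 in o2, 3223 to 4918 in PbfRNAi and 5815 to 7394 in PbfRNAi;o2.

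**Figure D1:**
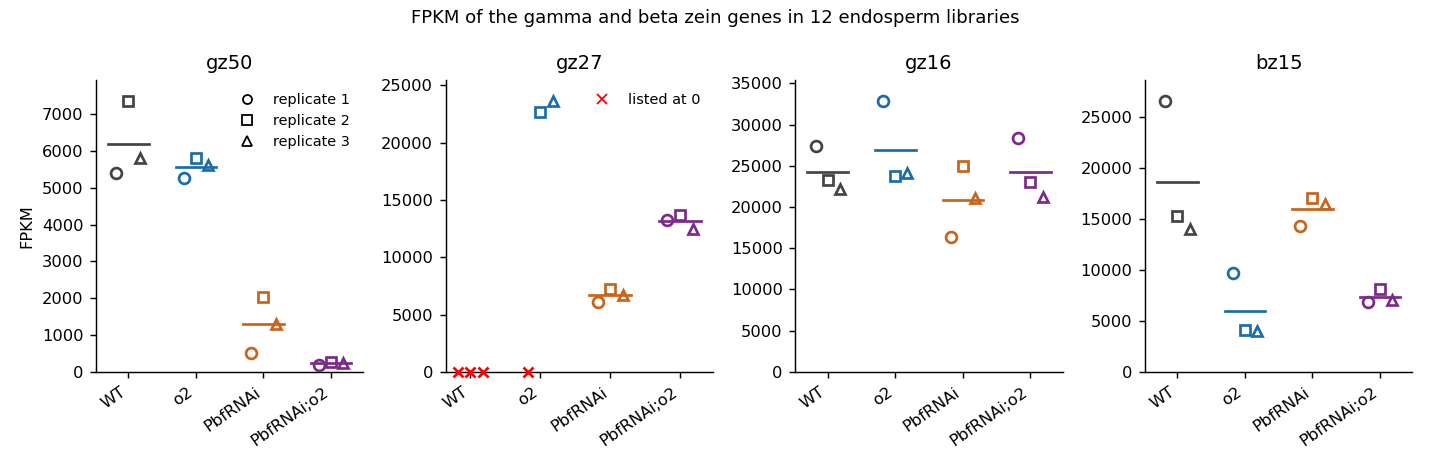
FPKM (vertical axes, linear, from 0) of gz50, gz27, gz16 and bz15 in each of the 12 libraries by genotype. Symbols stand for replicate numbers, horizontal lines for the mean of 3 libraries, and red crosses for libraries in which gz27 is listed at 0. The gz50 points drop in PbfRNAi and PbfRNAi;o2, the bz15 points are lower in o2 and PbfRNAi;o2, and the gz16 points overlap between all genotypes.

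The effect of the PbfRNAi construct on gz27 was not tested, for the reason given with its values below. Among the other members, the 50-kDa gamma-zein gene gz50 was the one that fell with the construct in both backgrounds. Its FPKM was 5406, 7351 and 5825 in WT, and o2 gave 5258, 5820 and 5635. In PbfRNAi it stood at 514, 2046 and 1311, and in PbfRNAi;o2 at 185, 273 and 232. The WT and o2 libraries overlapped, every PbfRNAi library was below all of them, and every PbfRNAi;o2 library was below every PbfRNAi library. The share of all genes whose libraries separate in this way was not counted. Overlap is therefore given, here and below, as a description of the values only. By rank in its library, gz50 was between 8th and 12th of all models in WT and o2, between 26th and 70th in PbfRNAi, and between 160th and 279th in PbfRNAi;o2.

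Against WT, gz50 fell to 0.208 of its level in PbfRNAi (6194 ± 1024 to 1290.3 ± 766, SD, n = 3, log2 −2.46 ± 0.38, SE, scaled −2.68, limma adjusted p = 0.00066). Of all tested genes 23.3% were called in that comparison, 18.2% higher and 5.16% lower (scaled 21%, 11.3% and 9.64%). In the o2 background gz50 stood at 0.0413 of the o2 level with the PbfRNAi construct (5571 ± 286 to 230 ± 44.4, log2 −4.61 ± 0.38, scaled −4.67, limma adjusted p = 4.6e-06). There 22.2% of genes were called, 14.4% higher and 7.84% lower (scaled 22.8%, 12.4% and 10.4%). Loss of o2 alone gave no call for gz50 (log2 −0.14 ± 0.38, scaled −0.66, limma adjusted p = 0.77), with a 95% interval of the fold from 0.508 to 1.62, in a comparison with 51.2% of genes called, 48.6% higher and 2.63% lower (scaled 16.8%, 8.85% and 7.94%). In the PbfRNAi background gz50 stood at 0.178 of the PbfRNAi level with o2 lost (log2 −2.29 ± 0.38, scaled −2.65, limma adjusted p = 0.0007). Beside it 44.9% of genes were called, 38.9% higher and 6% lower (scaled 28.1%, 15.2% and 12.9%). PbfRNAi;o2 thus stood at 0.0371 of WT, a difference of 27-fold (log2 −4.75 ± 0.38, scaled −5.33, limma adjusted p = 2.2e-06), beside 60.1% of genes called, 55.4% higher and 4.75% lower (scaled 36%, 19.8% and 16.2%). Without the 4 replicate 1 libraries all of these calls held, with −2 for PbfRNAi against WT, −4.50 for PbfRNAi;o2 against o2 and −2.70 against PbfRNAi.

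The effect of o2 on gz50 differed between the backgrounds. The interaction, the departure of PbfRNAi;o2 from the sum of the single effects, was −2.15 ± 0.54 (log2, scaled −1.99, limma adjusted p = 0.028), in a contrast in which 9.32% of genes were called, 3.83% higher and 5.49% lower (scaled 9.71%, 5.23% and 4.48%). This call was lost, at adjusted p of 0.053 to 0.069, without WT replicate 1 or 3, o2 replicate 2 or 3, PbfRNAi replicate 3 or PbfRNAi;o2 replicate 3. Without the 4 replicate 1 libraries it was −2.50 ± 0.28 (limma adjusted p = 0.00026). In that fit 7621 of 17058 genes were called in the interaction, 1811 higher and 5810 lower, against 1590 over all libraries. Of the 6 basal transfer layer markers tested, 3 were lower and none higher in PbfRNAi against WT (median log2 change −1.3), beside 5.16% of all genes called lower. The count was 5 lower with the replicate number as a block, and 5 lower and 1 higher without the replicate 1 libraries. Of all 17058 genes, 1164 were called lower and 4125 higher with the block. Leaving out the replicate 1 libraries gave 1700 lower and 6643 higher. In PbfRNAi;o2 against o2 1 was lower, beside 7.84% of all genes called lower. Without the replicate 1 libraries 3 were lower and 1 higher, beside 4454 of 17058 genes called lower and 3990 higher. The markers did not fall in PbfRNAi;o2 against PbfRNAi, where gz50 did (log2 −2.29). There 2 of the 6 were higher and none lower, beside 38.9% of all genes called higher. With the block 5 were higher and none lower, beside 7957 of 17058 genes called higher. Without the replicate 1 libraries 5 were again higher and none lower, beside 8627 genes called higher. BETL1, a marker of that layer, was the fourth most similar gene to gz50 by its profile over the 12 libraries (1.25 on the scale of profile differences used further on), with mean FPKM 101, 159, 38.5 and 37.7 in WT, o2, PbfRNAi and PbfRNAi;o2, and is named outside the rule after its values were seen. The part of the basal transfer layer in the fall of gz50 was not tested. In o2 against PbfRNAi, the direct contrast of the single lesions, gz50 was 4.32-fold higher in o2 (log2 2.32 ± 0.38, limma adjusted p = 0.00062). In that contrast 44.8% of genes were called, 34.8% higher and 9.97% lower (scaled 31.9%, 15.9% and 16%).

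The 27-kDa gamma-zein gene gz27, the next gene to gz50 in the order of the reference assembly, was listed at exactly 0 in some libraries. Its values were 0 in all 3 WT libraries. In o2 they were 0, 22675 and 23594, in PbfRNAi 6134, 7229 and 6699, and in PbfRNAi;o2 13241, 13686 and 12457. Where it had a value, gz27 ranked 2nd or 3rd of all models in o2 and PbfRNAi;o2 and 13th in each PbfRNAi library. A 0 in such a place can be a failed estimate. Of all models, 35 hold a 0 beside a value of 20 or more, and 4 hold one beside a value of 1000 or more, namely gz27, z1A2_2, z1C2 and the model named z1A1_3/z1A1_4, all of them zeins. The WT libraries held 13 to 19 such zeros each, the o2 libraries 11 to 13, and the libraries with the PbfRNAi construct 6 to 10. No mean, fold or test is therefore given for gz27 against WT or o2, and its WT level is not known from these values.

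One comparison of gz27 rests on 6 libraries with a value. The PbfRNAi;o2 libraries were all above the PbfRNAi libraries, with means of 13128 ± 622 and 6687 ± 548 (SD, n = 3), a ratio of 1.96. In a limma fit to these 6 libraries gz27 rose with loss of o2 (log2 0.98 ± 0.19; adjusted p = 0.0092), beside 38.2% of genes called there and 33.1% called higher. After median-of-ratios scaling the rise was 0.61 ± 0.21 and did not pass (limma adjusted p = 0.08). The neighbour gz50 fell over the same libraries. The o2 values of gz27 in replicates 2 and 3 were above all values in PbfRNAi;o2, and those above all values in PbfRNAi. Reads of similar gamma-zein sequences can be shared between models, so that the split between gz27 and its relatives is uncertain.

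The 16-kDa gamma-zein gene gz16 gave no call in any comparison. WT libraries held it at FPKM 27463, 23231 and 22151, and o2 libraries at 32821, 23760 and 24125. The PbfRNAi values were 16385, 24930 and 21073 and the PbfRNAi;o2 values 28371, 23071 and 21222. The libraries of all genotypes overlapped. It was the most abundant model in every o2 and every PbfRNAi;o2 library, and ranked 3rd to 5th in WT and PbfRNAi.

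The mean of gz16 was 24282 ± 2808 in WT (SD, n = 3 here and below), 26902 ± 5129 with o2 lost, 20796 ± 4279 in PbfRNAi and 24222 ± 3711 in PbfRNAi;o2. Against WT the log2 changes were 0.14 ± 0.23 in o2, −0.24 ± 0.23 in PbfRNAi and −0.01 ± 0.23 in PbfRNAi;o2 (limma adjusted p = 0.63, 0.5 and 0.98). The 95% intervals of the fold ran from 0.781 to 1.55, from 0.602 to 1.19 and from 0.706 to 1.40, so these data allow changes of that size. Scaled, the same changes were −0.38, −0.45 and −0.59, which turned the sign in o2, and none passed (limma adjusted p = 0.31, 0.21 and 0.072). The scaled intervals of the fold ran from 0.538 to 1.10, from 0.511 to 1.04 and from 0.465 to 0.951. The last lies below 1, and intervals are not adjusted over genes. For scale, 51.2%, 23.3% and 60.1% of all tested genes were called in these comparisons, or 16.8%, 21% and 36% when scaled. Over 153 values in 7 comparisons and all settings tried, none for gz16 had an adjusted p under 0.05, with log2 changes from −0.59 to 0.52. These values are refits of the same libraries and not separate tests.

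The 15-kDa beta-zein gene bz15 was the member that fell with loss of o2 in both backgrounds. Its FPKM was 26488, 15282 and 13954 in WT against 9700, 4087 and 3991 in o2. With the construct it was 14258, 17024 and 16424 in PbfRNAi against 6875, 8106 and 7068 in PbfRNAi;o2. Every o2 and PbfRNAi;o2 library was below every WT and PbfRNAi library, while WT overlapped PbfRNAi and o2 overlapped PbfRNAi;o2. How many of all genes separate in this way was not counted. The replicate 1 library was highest of its genotype in WT and o2 and lowest in PbfRNAi and PbfRNAi;o2.

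In o2 against WT bz15 fell to 0.319 (18575 ± 6885 to 5926 ± 3269, SD, n = 3, log2 −1.72 ± 0.33, scaled −2.24, limma adjusted p = 0.0015). In PbfRNAi;o2 against PbfRNAi it fell to 0.462 (15902 ± 1455 to 7350 ± 662, log2 −1.11 ± 0.33, scaled −1.48, limma adjusted p = 0.017), a call that missed the threshold without PbfRNAi replicate 2 (adjusted p = 0.052). Between libraries with the same replicate number the ratio of o2 to WT was 0.366, 0.268 and 0.286, and that of PbfRNAi;o2 to PbfRNAi 0.482, 0.476 and 0.430. Without the 4 replicate 1 libraries the changes were −1.85 and −1.14 and both passed. In the direct contrast of o2 with PbfRNAi, bz15 was lower in o2 (log2 −1.55 ± 0.33, scaled −1.85, limma adjusted p = 0.0029), opposite to gz50. PbfRNAi;o2 stood at 0.396 of WT (log2 −1.28 ± 0.33, scaled −1.86, limma adjusted p = 0.0056).

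The PbfRNAi construct gave no call for bz15 in the O2 background (log2 −0.17 ± 0.33, limma adjusted p = 0.76, 95% interval of the fold 0.54 to 1.47). Without the replicate 1 libraries the sign turned to 0.20 ± 0.10 and the change again did not pass (limma adjusted p = 0.15). In the o2 background bz15 stood 1.24-fold higher with the construct, which did not pass over all libraries (log2 0.44 ± 0.33, limma adjusted p = 0.39). It passed without o2 replicate 1 (0.86 ± 0.25, limma adjusted p = 0.035) and without the 4 replicate 1 libraries (0.91 ± 0.10, limma adjusted p = 0.00015). In those fits 3709 and 8444 of 17058 genes were called, against 3793 over all libraries. Between libraries with the same replicate number the ratio was 0.709 in replicate 1 and 1.98 and 1.77 in replicates 2 and 3. The interaction for bz15 was 0.61 ± 0.47 over all libraries and did not pass (limma adjusted p = 0.48). Without the 4 replicate 1 libraries its size was similar, with a smaller error, and it passed (0.71 ± 0.15, limma adjusted p = 0.0051). In the last fit 7621 of 17058 genes were called in the interaction, against 1590 over all libraries.

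**Figure D2:**
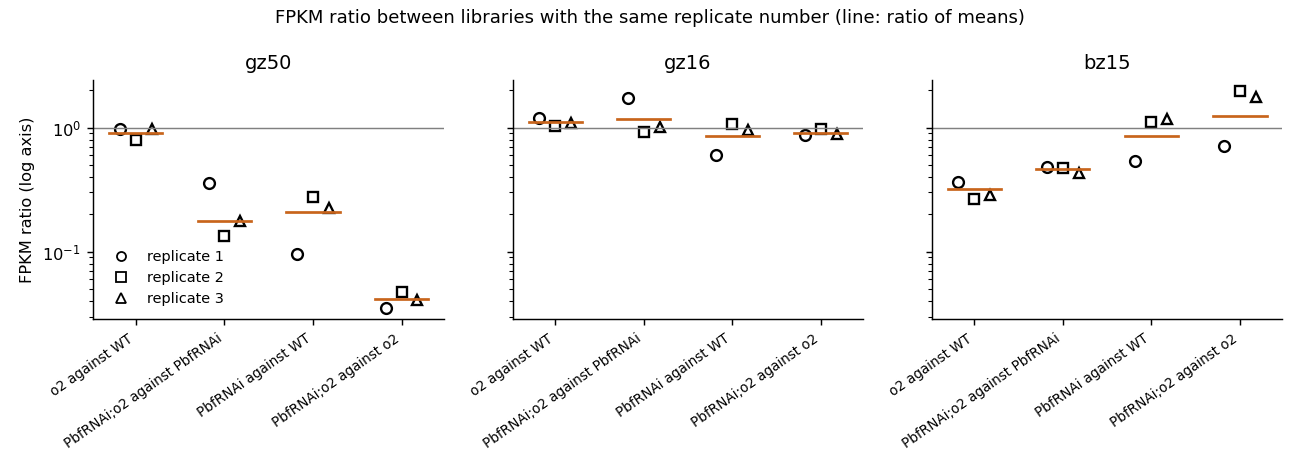
FPKM ratio (vertical axis, logarithmic) of gz50, gz16 and bz15 between libraries that carry the same replicate number, for 4 comparisons of single genotype steps. Symbols stand for replicate numbers and orange lines for the ratio of means over 3 libraries. The bz15 ratio of PbfRNAi;o2 to o2 is 0.709 in replicate 1 but 1.98 and 1.77 in replicates 2 and 3, while all gz50 ratios of PbfRNAi;o2 to o2 lie between 0.0351 and 0.0470.

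**Figure D3:**
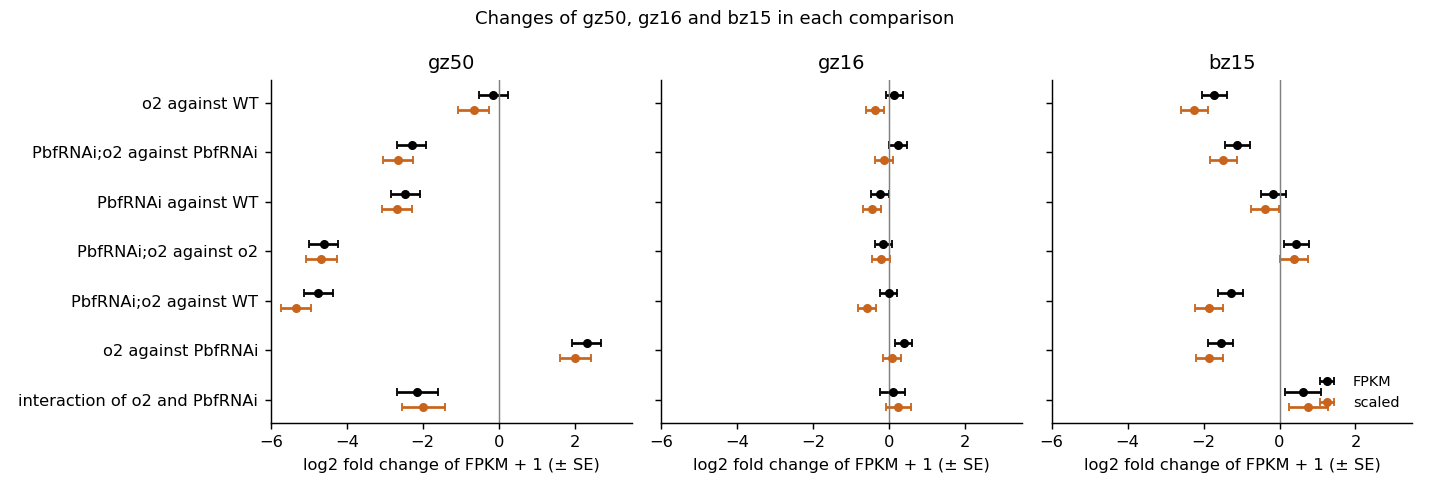
Log2 fold change of FPKM + 1 (horizontal axis) with its standard error for gz50, gz16 and bz15 in 7 limma contrasts over 12 libraries, on the FPKM scale (black) and after median-of-ratios scaling (orange). The gz50 points lie near −2.46 and −4.61 for the PbfRNAi steps, the bz15 points are below 0 for the o2 steps, and the gz16 points stay between −0.59 and 0.38.

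Ratios of members within a library do not depend on how FPKM is scaled to the library total. The ratio of gz50 to gz16 was 0.197, 0.316 and 0.263 in WT against 0.160, 0.245 and 0.234 with o2 lost. It was 0.0314, 0.0821 and 0.0622 in PbfRNAi and 0.00651, 0.0119 and 0.0109 in PbfRNAi;o2. WT and o2 overlapped, and the other genotypes did not overlap with them or with each other. With 3 libraries against 3 a two-sided exact permutation test cannot go below p = 0.1, the value reached by each of these comparisons without overlap. An exact test over all 12 libraries, chosen after the data were seen, permuted the PbfRNAi status within each o2 status. It gave a mean difference in log2(gz50/gz16) of −3.35 between 6 libraries with the construct and 6 without (exact permutation p = 0.005, the smallest the test allows, and 0.01 adjusted over 10 such tests). Libraries that separate in the same direction at both statuses always give this smallest value. Here and below it therefore restates the separation already seen and adds no support to it. Permuting the o2 status instead gave −1.40 (exact permutation p = 0.02, adjusted 0.029), made up of −0.28 without the construct and −2.52 with it.

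The ratio of bz15 to gz16 was 0.964, 0.658 and 0.630 in WT and 0.870, 0.683 and 0.779 in PbfRNAi, against 0.296, 0.172 and 0.165 in o2 and 0.242, 0.351 and 0.333 in PbfRNAi;o2. The o2 and PbfRNAi;o2 libraries did not overlap with the others. Permuting the o2 status within each PbfRNAi status gave a mean log2 difference of −1.60 (n = 6 against 6, exact permutation p = 0.005, adjusted 0.01). The PbfRNAi status gave 0.33 for the same ratio (exact permutation p = 0.15, adjusted 0.17), and 0.60 without the replicate 1 libraries (exact permutation p = 0.056, the smallest that 4 libraries against 4 allow). For the ratio of gz50 to bz15 the PbfRNAi status gave −3.68 (exact permutation p = 0.005, adjusted 0.01). Its o2 difference was 1.58 without the construct and −1.18 with it, a mean of 0.20 (exact permutation p = 0.77). The more abundant of the pair in the o2 libraries of replicates 2 and 3 was gz50, at 1.42 and 1.41 times bz15, whereas bz15 was ahead in the other 10 libraries.

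**Figure D4:**
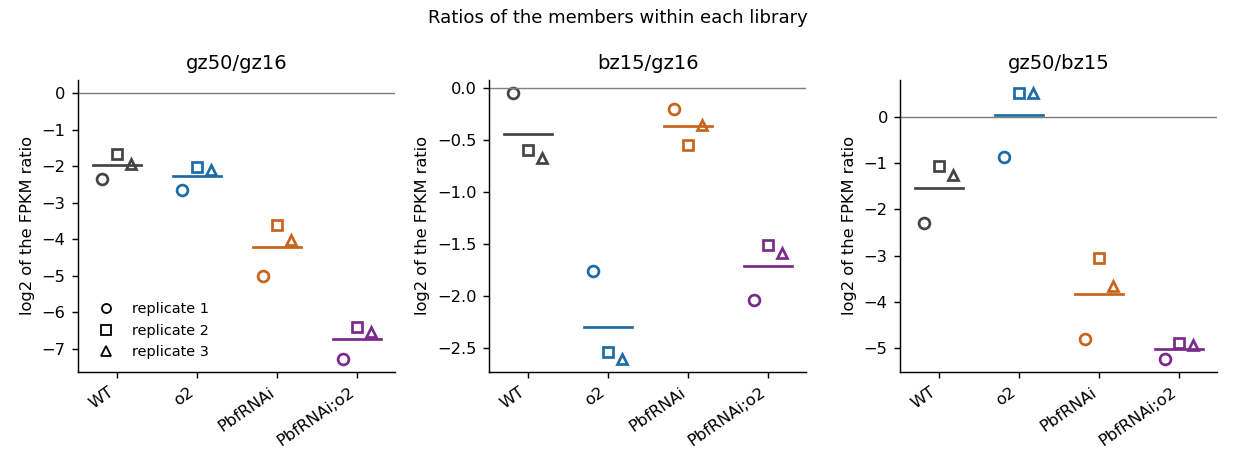
Log2 of the FPKM ratio (vertical axes) of gz50 to gz16, bz15 to gz16 and gz50 to bz15 in each of 12 libraries by genotype, with symbols for replicate numbers and lines for the mean. The mean of log2(gz50/gz16) goes from −1.98 in WT to −4.20 in PbfRNAi and −6.73 in PbfRNAi;o2, and that of log2(bz15/gz16) from −0.44 in WT to −2.30 in o2.

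Together gz50, gz16 and bz15 held 12.6%, 10.4% and 9.74% of the FPKM sum in the WT libraries and 9.72%, 6.87% and 6.91% in o2. They held 6.2%, 8.61% and 7.47% in PbfRNAi and 7.17%, 6.17% and 5.62% in PbfRNAi;o2. With gz27, PbfRNAi;o2 stood at 9.85%, 8.85% and 8.08% and o2 replicates 2 and 3 at 11.5% and 11.7%. These totals lack gz27 where it was listed at 0.

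The genes with the most similar pattern were found by the root mean square difference between log2(FPKM + 1) profiles, each centred on its mean over the 12 libraries, among 6083 other genes with a mean FPKM of at least 10 and no 0. For gz50 they were GRMZM2G001953 (0.876), GRMZM6G312787 (0.97) and GRMZM2G096343 (1.11). All 3 were high in WT and o2 and low in both PbfRNAi genotypes. Mean FPKM of GRMZM2G001953 was 29.0, 29.7, 1.14 and 0.350 in WT, o2, PbfRNAi and PbfRNAi;o2. The other genes had similar levels in PbfRNAi and PbfRNAi;o2, unlike gz50. These were 5.03 and 4.80 for GRMZM6G312787 and 2.38 and 2.42 for GRMZM2G096343. All 3 differences are above the 0.871 between bz15 and gz16, so none is a close match of gz50. For bz15 they were GRMZM2G106424 (0.37), GRMZM6G901724 (0.374) and AF546188.1_FG005 (0.443). The last of these, which the reference table does not name, had levels in the range of gz16 or above in WT and PbfRNAi. It had FPKM 29144, 33117 and 26444 in WT against 17272, 8120 and 8107 with o2 lost, and 28015, 28719 and 25097 in PbfRNAi against 4747, 13515 and 11938 in PbfRNAi;o2. For gz16 they were GRMZM2G068913 (0.177), GRMZM2G070323 (0.182) and GRMZM2G148213 (0.195), with mean FPKM of 14.04 to 51.4 over the genotypes. Among the members themselves the difference was 0.871 between bz15 and gz16, 1.94 between gz50 and gz16 and 2.04 between gz50 and bz15, so no member was among the nearest genes of another.

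The other zein genes are given by class. Of 11 models of 22-kDa alpha-zeins, 4 hold a 0 beside a value of 20 or more and were set aside. All 7 of the others fell in o2, with a median log2 change of −5.22 against 0.41 for all tested genes, beside 2.63% of all genes called lower. In PbfRNAi 1 of 7 fell, or 3 without the replicate 1 libraries, where 1700 of 17058 genes were called lower. The zeros of 3 models set aside, z1C1_11, z1C1_1 and z1C1_6, lie in o2 or PbfRNAi;o2 libraries alone. With every model that has no 0 in the genotypes compared, 4 of 10 fell in PbfRNAi, beside 5.16% of all genes, and 9 of 9 in o2. The added 3 changed by −2.56, −1.89 and −0.999 in PbfRNAi (log2, limma adjusted p = 3.08e-06, 1.21e-05 and 0.00258). The 1 among the 7 was z1C1_12, named after its values were seen, at FPKM 1075, 2644 and 2062 in WT and 5.7, 5.39 and 5.34 in PbfRNAi. All 7 fell in PbfRNAi;o2 against WT, with a median of −8.07, beside 4.75% of all genes called lower. The most abundant, z1C1_8, stood at 9362, 18327 and 15745 in WT, then 2425, 623 and 597 in o2, 7711, 10821 and 9928 in PbfRNAi and 10.1, 160 and 150 in PbfRNAi;o2. Between genotypes that differ in o2, z1C1_8 fell further than bz15. The log2 ratio of bz15 to z1C1_8 was higher with o2 lost by 2.13 in the WT background and 6.12 with the construct (mean 4.12, n = 6 against 6, exact permutation p = 0.005, adjusted 0.01). With the construct the same ratio was higher by 0.40 in the O2 background and by 4.39 in the o2 background (mean 2.39, exact permutation p = 0.02, adjusted 0.029). Replicate 1 of PbfRNAi;o2 had a log2 ratio of 9.41 and the other two 5.66 and 5.56. Without the 4 replicate 1 libraries the o2 differences were 2.95 and 4.92 and those of the construct 0.90 and 2.88. For gz50 against z1C1_8 loss of o2 gave 4.32 (exact permutation p = 0.005, adjusted 0.01) and the construct gave −1.90 and −0.67 (mean −1.28, exact permutation p = 0.085, adjusted 0.11), which did not pass. In PbfRNAi;o2 that log2 ratio was 4.19 in replicate 1 and 0.77 and 0.62 in the other two, and without the 4 replicate 1 libraries the construct gave −1.29 and −2.53 (mean −1.91). With 4 libraries against 4 no such exact permutation test can go below p = 0.056.

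Of 10 models of 19-kDa alpha-zeins, 2 hold a 0 beside a value of 20 or more, 1 was under the filter on low values and 7 were tested. In o2 3 fell and none rose (2 with replicate number as a block, 6 without the replicate 1 libraries), and in PbfRNAi 1 fell and 1 rose (2 and 2 without the replicate 1 libraries). Of all genes 2.63% were called lower and 48.6% higher in o2, and 5.16% lower and 18.2% higher in PbfRNAi. With the block 608 of 17058 genes were called lower in o2. Without the replicate 1 libraries 969 were called lower in o2, and 1700 lower and 6643 higher in PbfRNAi. In PbfRNAi;o2 against WT 6 fell and 1 rose, beside 4.75% of all genes called lower and 55.4% higher. The riser was z1A2_1, named after its values were seen, at 806, 1313 and 996 in WT and 23510, 22673 and 22321 in PbfRNAi (log2 4.49 ± 0.41, limma adjusted p = 1.01e-05). Near-identical alpha-zein copies can share reads, so the level of a single model is uncertain. The 1 delta-zein, dzs18, fell in o2 (log2 −4.51 ± 0.37, limma adjusted p = 1.61e-05) and had no call in PbfRNAi (0.01, adjusted p = 0.988), as bz15 did. It stood at 64.3, 21.7 and 24.3 in WT against 0.209, 0.397 and 0.858 in o2, with 49.3, 23.6 and 30.05 in PbfRNAi and 0.532, 0.573 and 0.633 in PbfRNAi;o2.

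**Figure D5:**
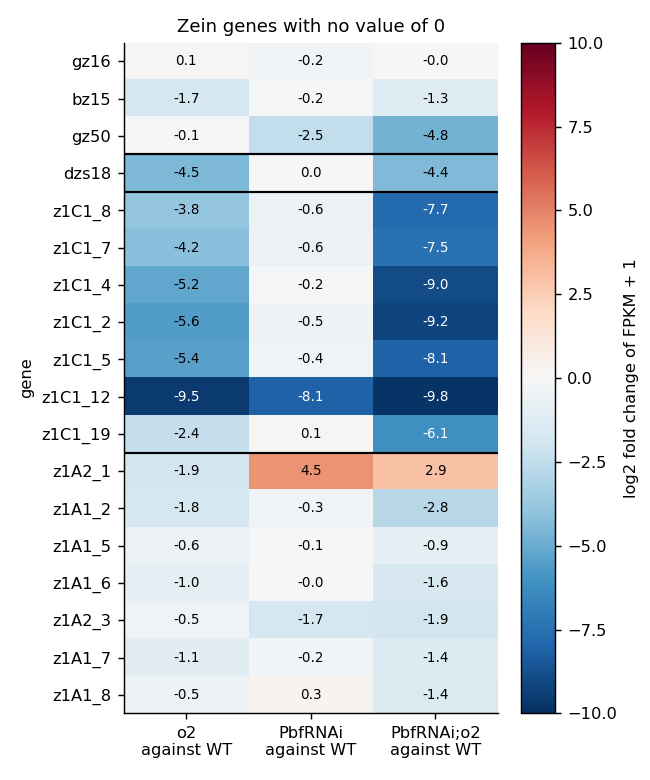
Log2 fold change of FPKM + 1 against WT (colour and printed value) of zein genes that have no value of 0, in o2, PbfRNAi and PbfRNAi;o2. Rows are ordered as gz16, bz15 and gz50, the delta-zein, the 22-kDa alpha-zeins and the 19-kDa alpha-zeins. In o2 the change of bz15 is −1.72 and that of z1C1_8 is −3.85, and in PbfRNAi gz50 stands at −2.46 and z1C1_8 at −0.57.

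Of 9 models of known zein regulators 8 were tested. In o2 against WT 4 were higher and 2 lower (1 and 3 scaled), in PbfRNAi 1 and 2, and in PbfRNAi;o2 2 and 3. The list holds o2 and pbf1, the targets of the lesions, and the lower calls include them. In PbfRNAi the lower calls were these alone, o2 at log2 −0.78 and pbf1 at −1.15 (limma adjusted p = 0.0087 and 0.00017). Of all genes 18.2% were called higher and 5.16% lower in PbfRNAi, and 55.4% and 4.75% in PbfRNAi;o2. The higher calls in o2 were near the background, since 48.6% of all genes were called higher there (8.85% scaled). Besides o2 and pbf1 the most abundant was Nkd1, a zinc finger factor of aleurone and endosperm differentiation, with 58.2, 49.96 and 49.8 in WT against 104, 121 and 126 in o2 (log2 1.14 ± 0.20, limma adjusted p = 0.00087, scaled 0.63, adjusted p = 0.066). The pbf1 transcript was higher in o2 (log2 1.48 ± 0.15, scaled 0.97, limma adjusted p = 4.8e-05), where gz50 had no call.

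Genes of protein folding and protein bodies, where the cysteine-rich zeins are laid down, were counted against the same background. Of 20 tested models 14 were higher and none lower in o2, but 4 higher and 2 lower when scaled. In PbfRNAi 9 were higher and 3 lower (8 and 3 scaled), and in PbfRNAi;o2 against WT 14 higher and none lower (11 and none scaled). The shares of all genes called higher were 48.6% in o2 (8.85% scaled), 18.2% in PbfRNAi (11.3% scaled) and 55.4% in PbfRNAi;o2 (19.8% scaled). PDIL1-1, which encodes a protein disulfide isomerase, stood at 478, 339 and 340.1 in WT, then 755, 883 and 926 in o2, 1388, 884 and 1099 in PbfRNAi and 1019, 1320 and 1431 in PbfRNAi;o2. It rose in PbfRNAi (log2 1.54 ± 0.20, scaled 1.32, limma adjusted p = 0.00016). The endoplasmic reticulum chaperone gene bip1 stood at 115, 82.8 and 80.6 in WT and 737, 356 and 389 in PbfRNAi (log2 2.34 ± 0.26, scaled 2.12, limma adjusted p = 4.6e-05), against 200.2, 136 and 133 in o2.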

How the data were processed

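The authors deposited FPKM values for 39448 gene models in 12 columns, whose names match the sample titles. The submitters' processing notes name Cufflinks, TopHat, Bowtie2 and FastQC and the build B73 RefGen_v3, while versions, annotation and strand setting were not given. Libraries were depleted of ribosomal RNA (Ribo-Zero) and read as pairs of 125 nt, per the labels' protocols. The steps between low values did not give whole reads (16.8% to 33.9% of genes up to FPKM 0.5 had a ratio of replicates 2 and 3 within 0.02, log2, of that of small whole numbers), so reads could not be recovered and no counting interval is given. Names came from a RefSeq table of Zm-B73-REFERENCE-NAM-5.0 (18905 identifiers matched), another build, used for names and gene order only.

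The 17058 genes that reached FPKM 1 in 3 or more libraries were tested with limma 3.58.1 (trend, robust) in R 4.3.3 on log2(FPKM + 1), with 4 genotype means over 12 libraries, two-sided, at an adjusted p of 0.05; the log2(FPKM + 1) scale understates changes of low genes. The fit was tested on simulated data. Exact permutation tests were enumerated in python 3.11.15 with numpy 2.4.6. Members and lists were chosen with earlier results of these data known. Named genes are the members, o2 and pbf1, the 3 most similar genes of each member by profile, and the 2 to 4 most abundant of each list, of which fewer are printed. A list of cysteine and sulfur assimilation genes was not analysed here, since the reference table has no product names. Same-numbered libraries deviated together (r = 0.18 to 0.501 over 18 pairs across genes). Libraries of unequal number were not compared, so this cannot show that the numbers pair libraries. A fit with the replicate number as a block was an alternative. Other alternatives were the pseudocount, the filter, the scaling, the 6 libraries of a contrast alone and leaving out libraries. Whether the replicates come from separate plants or ears is not stated beyond the word biological, and p-values measure the spread between these libraries.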

Additional observations from a re-analysis of the deposited data

Results flagged for a closer look

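The o2 effect on gz50 differed between backgrounds by a test of the difference itself. The interaction was −2.15 ± 0.54 (log2, limma adjusted p = 0.028). It was negative under all settings tried, from −2.70 to −1.71 when libraries were left out. The call was lost at adjusted p of 0.053 to 0.069 in 6 of the 12 omissions of a single library, and with median-of-ratios scaling the adjusted p was 0.049.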

How the results depend on the processing

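Over the changes of the 4 genes, 162 of 168 values under another pseudocount, filter, scaling, sample set or block kept their direction and their side of the threshold. Median-of-ratios scaling ended the call of gz27 (0.61) and turned gz16 to −0.38 in o2 against WT and −0.13 in PbfRNAi;o2 against PbfRNAi. Scaling outside the 100 most abundant genes gave −0.38 and −0.14, and scaling to the sum without zeins −0.22 for the first. With libraries left out 257 of 279 values were kept. Changes of gz16 then ran from −0.01 to 0.23 in o2 against WT, −0.38 to 0.01 in PbfRNAi against WT, −0.13 to 0.08 in PbfRNAi;o2 against WT, −0.27 to 0.01 against o2, −0.05 to 0.37 against PbfRNAi and −0.13 to 0.24 in the interaction. Those of bz15 ran from −0.34 to 0.20 in PbfRNAi against WT, 0.22 to 0.91 in PbfRNAi;o2 against o2, −1.19 to −1.06 against PbfRNAi and 0.32 to 1.03 in the interaction, and that of gz50 in the interaction from −2.70 to −1.71. The difference in log2(bz15/gz16) between PbfRNAi and WT ran from −0.04 to 0.27. The cause was not tested.

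The replicate block changed no call of a member. It gave −2.15 ± 0.41 (limma adjusted p = 0.0065) for the gz50 interaction and moved the genes called in that contrast from 1590 to 2513. Genes called in o2 against WT went from 8730 to 2865 with median-of-ratios scaling and 3453 when scaled to the sum without zeins, those in PbfRNAi;o2 against WT from 10259 to 6140, 6134 and 6114 under the 3 scalings, and those in PbfRNAi;o2 against PbfRNAi from 7657 to 4793, 4789 and 5065. Without the replicate 1 libraries they were 8343 in PbfRNAi against WT (3978 over all libraries, 2637 without WT replicate 2), 8444 in PbfRNAi;o2 against o2 (3793), 11690 in o2 against PbfRNAi (7643) and 7621 in the interaction (1590, and 1055 without o2 replicate 3). The unknown depth and the 3 libraries a genotype limit what could be detected.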
